A study of Mus musculus with 2 samples.

Results

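The cells described here were 629 sorted brain cells that carried transcripts of Dcx, a microtubule-binding protein of young migrating neurons, but few or none of the long noncoding RNA Meg3. They made up 15.2% of the 4151 brain cells kept (95% exact binomial interval 14.1 to 16.3) and were drawn from 9759 kept cells in the whole series. A kept cell had more than 200 and fewer than 4000 genes detected and under 40% of its unique molecular identifiers (UMIs, counts of single RNA molecules) from mitochondrial genes. A member held at least 2 Dcx UMIs and at least 4 UMIs of Dcx and Sox11 together. It held at most 1 UMI of the division genes Mki67 and Top2a, fewer than 10 of the astroglial genes Slc1a2, Slc1a3 and Aldoc, and at most 1 of the oligodendrocyte progenitor genes Pdgfra and Cspg4. Meg3 took under 0.2% of its UMIs. These gates left 1797 cells at the Dcx minimum, then 1533, 1255, 1226 and 1221, of which 629 were under the Meg3 limit.

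New neurons of the adult rodent forebrain arise mainly beside the lateral ventricles and in the dentate gyrus of the hippocampus. In the first niche, astrocyte-like stem cells give rise to dividing progenitors and then to neuroblasts that express Dlx transcription factors, migrate to the olfactory bulb and become mostly GABA-using interneurons. In the second, progenitors that express Eomes and Neurod1 give rise to granule neurons that use glutamate. Meg3 is transcribed from the maternal copy of the imprinted Dlk1-Dio3 region and is abundant in many neurons.

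The cells came from adult Nes-GFP mice aged about 6 weeks, in which GFP is driven by Nestin regulatory elements, and GFP+ cells were sorted after trypsin dissociation of the tissue. The labels gave the strain as C57BL/6, whereas the methods of the study described CD1 or mixed CD1 and C3H stock to which transgenic lines were bred, and whether cells of several animals were pooled was not given. Brain and lung each gave 1 droplet library (3' chemistry, version 3) from 1 biological replicate, so no comparison below has replicates and none carries a p-value. The Nestin reporter marks several cell types, and the sort took GFP+ cells of the whole brain, so the niche that a cell came from was not recorded.

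Levels are given as CPM, the UMIs of a gene scaled to 1e+06 UMIs summed over all cells of a group. A ratio is a quotient of CPM values, followed in parentheses by its exact 95% interval, which covers counting error within this library only. A gene entered a comparison if it reached 10 CPM in 1 of the 2 groups, and it was called higher or lower if it differed by at least 2-fold. Where a group held no UMI of a gene, the fold was set against a floor of 3 UMIs in that group and is given as a lower bound. All cells were chosen on measured values, so every contrast with cells outside the gates is a description. The genes of the rule itself are not findings.

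The brain library held 4640 barcodes and 26221173 UMIs. Members had a median of 5053 UMIs per cell (1490 to 12326), against 3971 in the 592 cells that passed every other gate but lay above the Meg3 limit (high-Meg3 Dcx cells) and 8651 in 265 dividing Dcx cells, which passed the Dcx, astroglial and oligodendrocyte progenitor gates with more than 1 UMI of Mki67 and Top2a. Brain and lung shared 15 cell barcodes, none of them in members. A doublet caller (Scrublet) marked 44 of 4151 brain cells, or 1.06%, and 6 members. No lung cell passed the same gates, 0 of 5608 kept cells (upper limit 0.0535%).

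The gating genes had the following values in members. Meg3 was at 0 UMIs in 321 members, or 51.0%, and below the limit in the others. The member nearest the limit had 0.199551% Meg3 and the closest cell outside had 0.20024%. In all, 71 members lay between 0.15% and 0.2% and 79 cells between 0.2% and 0.25%, with medians of 8 and 10 Meg3 UMIs. Members held a median of 5 Dcx UMIs (2 to 19), 41 of them exactly 2, and 87 had no Sox11 UMI. In 571 members neither Mki67 nor Top2a had a UMI, and 58 held 1. The histogram of Meg3 shares has a peak at 0 and a broad shoulder that runs through the limit without a gap.

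**Figure D1:**
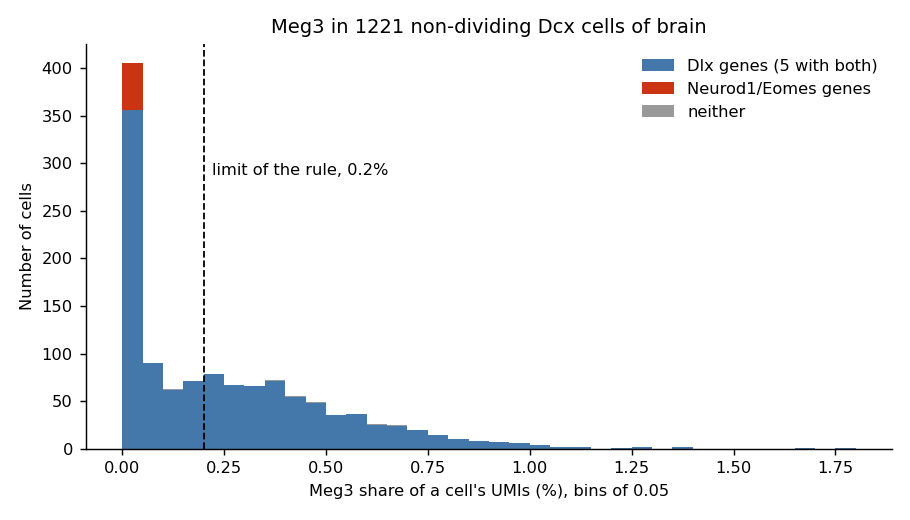
Number of cells (y axis) by the Meg3 share of a cell's UMIs in percent (x axis, bins of 0.05) for the 1221 non-dividing Dcx cells, coloured by the 2 kinds of cell defined from Dlx and Neurod1/Eomes genes. The dashed line is the 0.2% limit, which separates 629 members from 592 cells, and the 49 Neurod1/Eomes cells all lie in the lowest bin.

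The label given to these cells, early neuroblasts, was checked against its markers that the rule did not use. Islr2, a leucine-rich repeat membrane protein linked to axon growth, was at 424 CPM in members and 2.64 (2.47 to 2.82) times the level of all other kept brain cells. Parm1, a mucin-like membrane protein, was at 104 CPM and 2.43 (2.13 to 2.77) times that level. Zfp385b, a zinc-finger protein, was at 52.8 CPM and 2.42 (2.01 to 2.90) times that level. All 3 were therefore higher than in the rest of the brain library.

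None of the 3 set members apart from the high-Meg3 cells, against which the ratios were 0.793 (0.735 to 0.855) for Islr2, 0.914 (0.778 to 1.07) for Parm1 and 0.615 (0.50 to 0.755) for Zfp385b. With every cell thinned to 1000 UMIs, 35.8% of members and 41.2% of high-Meg3 cells had an Islr2 UMI, against 0.949% of endothelial cells, a type that should lack it. The corresponding shares were 10.5%, 10.2% and 0 of 316 cells, which allows up to 0.949%, for Parm1 and 5.41%, 6.80% and 0.316% for Zfp385b. Unthinned, 77.1% of members had an Islr2 UMI, 30.2% a Parm1 UMI and 19.1% a Zfp385b UMI. In endothelial cells these shares were 6.27%, 1.88% and 0.940%. The median depth was 5053 UMIs in members and 3855 in endothelial cells. Against dividing Dcx cells all 3 were higher in members, with ratios of 2.57 (2.29 to 2.89), 2.40 (1.91 to 3.03) and 6.55 (4.03 to 11.3), and 13.2% of thinned dividing cells had an Islr2 UMI. The markers thus set non-dividing Dcx cells of either Meg3 level above dividing ones, and they do not tell how early a cell is. The cells are called low-Meg3 Dcx cells below.

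The low-Meg3 Dcx cells were of 2 kinds. A cell was called a Dlx member if it held at least 3 UMIs of Dlx1, Dlx2, Dlx5, Dlx6 and Dlx6os1 together, and a Neurod1/Eomes member if it held at least 3 UMIs of Neurod1, Neurod2, Neurod6, Eomes and Tbr1. By these sums, which were set with the values in view, 574 members (91.3%) were Dlx members and 49 (7.79%, 5.82 to 10.2) were Neurod1/Eomes members. Only 5 cells passed both and 1 passed neither. Dlx members held a median of 20 Dlx UMIs (3 to 65), and 571 of 574 had no UMI of the other 5 genes. Neurod1/Eomes members held a median of 10 UMIs of those 5 genes (3 to 27), and 45 of 49 had no Dlx UMI.

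Neurod1/Eomes cells were found on 1 side of the Meg3 limit. None of the 592 high-Meg3 cells was of this kind (upper limit 0.507%), and 587 of them were Dlx cells. Of the 49 Neurod1/Eomes members, 46 held no Meg3 UMI, and the other 3 held 3 UMIs in all. The 25 Neurod1/Eomes cells elsewhere in the brain library failed the other gates and none failed the Meg3 gate. Of these 25, 15 fell short on Dcx, 5 on the Dcx and Sox11 sum, 6 exceeded the division limit and 6 the astroglial limit, some on more than 1 count. Scrublet marked none of the 49.

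**Figure D2:**
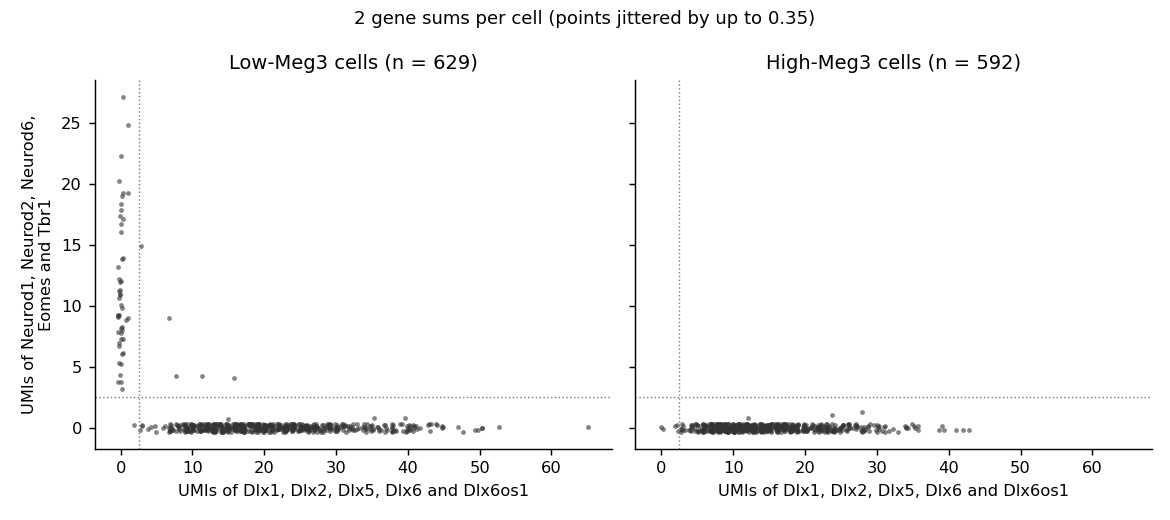
UMIs of Neurod1, Neurod2, Neurod6, Eomes and Tbr1 (y axis) against UMIs of Dlx1, Dlx2, Dlx5, Dlx6 and Dlx6os1 (x axis) in single low-Meg3 (left, n = 629) and high-Meg3 cells (right, n = 592), jittered by up to 0.35, with dotted lines between 2 and 3 UMIs. The 49 Neurod1/Eomes cells form an arm along the left axis in the low-Meg3 panel, and no such cell is in the high-Meg3 panel.

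Against all other kept brain cells, 10537 genes entered the comparison. In the low-Meg3 Dcx cells 255 of them (2.42%) were called higher and 2272 (21.6%) lower. Genes of the neuronal cytoskeleton, which shape the growing processes of young neurons, were higher in 14 of 27 cases and lower in 0. Among them Tubb3, a neuronal tubulin, was at 2592 CPM against 815, a ratio of 3.18 (3.09 to 3.27). Stmn2, a tubulin-binding protein of growth cones, was at 2842 against 1006 CPM.

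Genes of the GABA lineage were also higher. Of 21 tested, 11 were called higher and 0 lower, among them Dlx1 (2.56, 2.46 to 2.66) and Gad2, a GABA-synthesizing enzyme (2.31, 2.17 to 2.46). Dlx6 lies on chromosome 6 wholly within its antisense RNA Dlx6os1, and because the strand setting of the counting was not given, their reads cannot be told apart. The migration and adhesion list had 10 of 28 genes higher and 3 lower. Igfbpl1, a secreted binding protein abundant in neuroblasts, was at 2315 against 754 CPM (3.07, 2.98 to 3.16). Among commitment factors, which drive or hold neuronal fate, 8 of 20 were higher and 1 was lower. The maturation and synapse list had 5 of 28 genes higher and 2 lower, beside 2.42% and 21.6% of all tested genes, and 3 of 27 higher and 7 lower without the 49 Neurod1/Eomes members.

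The 12 genes with the largest lower bounds of their ratio were Neurod6, Neurod2, Neurod1, Tbr1, Sstr2, Prdm8, Calb2, Bhlhe22, Slc17a6, Eomes, Pcp4 and Tubb3. For all but Tubb3, most UMIs in members came from the 49 Neurod1/Eomes members. With those 49 cells left out, an alternative added after the data were seen, 6 of the 12 were lower than in the other brain cells, with ratios of 0.702 for Neurod1, 0.171 for Tbr1, 0.600 for Bhlhe22, 0.346 for Slc17a6, 0.477 for Eomes and 0.215 for Pcp4. Of 12 glutamate lineage genes 10 were higher, and 9 of these had most of their UMIs in the 49 cells, while Prox1 had 598 of its 791 in Dlx members. The list ratio of 3.33 (3.14 to 3.54) was 1.51 without the 49 cells.

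Genes of stem cells and activated progenitors were lower, 24 of 31 tested with 0 higher, and the list as a whole was at 0.152 (0.149 to 0.156) times the level of the other brain cells. Apoe and Clu, lipid carriers of astroglia, were among the 12 genes that led the other direction. Apoe was at 150.0 against 6050.3 CPM and Clu at 16.7 against 937 CPM. The other 10 were genes of other cell types, namely the haemoglobin genes Hba-a1, Hbb-bs, Hba-a2 and Hbb-bt of red blood cells, Tmem212 and Meig1 of ciliated ependymal cells, Vtn and Pdgfrb of mural cells, and Cxcl14 and Gja1 of astroglia. For division genes, 41 of 47 tested G2/M genes were lower, a direction tied to the limit on Mki67 and Top2a, while of 37 S phase genes 10 were lower and 1 was higher, shares near the 21.6% and 2.42% of all tested genes.

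Markers of other cell types were low in members as lists, all of whose tested genes were at least 2-fold lower than in the other brain cells save 1 of 7 oligodendrocyte progenitor markers. Summed levels in members were 355 CPM for mature oligodendrocyte markers, 285 for oligodendrocyte progenitor, 165 for endothelial, 56.7 for microglial, 35.2 for mural, 34.3 for astroglial, 25.9 for fibroblast and 14.9 for ependymal markers. Single cells held much of this signal. Of 552 endothelial UMIs, 491 were in 6 members, and of 190 microglial UMIs, 166 were in 1 member. With members that held 3 or more UMIs of another type's list left out, 464 members remained.

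The closest comparison was with the 592 high-Meg3 Dcx cells, which differ from members in the rule by Meg3 alone. Of 8872 genes tested, 335 (3.78%) were higher and 205 (2.31%) lower in members, and the median log2 ratio over all tested genes was 0.02. Cytoskeletal genes were nearly level, with 0 of 27 higher and only the neurofilament-like Ina lower (45.0 against 113 CPM). 16 of 28 S phase genes, 10 of 24 G2/M genes, 9 of 21 stem and progenitor genes and 5 of 19 commitment factors were higher, and 0 of each were lower. The commitment list as a whole was at 0.952 (0.936 to 0.969) times the high-Meg3 level. Of 27 maturation and synapse genes, 3 were higher and 3 lower. Summed markers of other cell types stood in members and high-Meg3 cells at 165 and 78.8 CPM for endothelial, 35.2 and 14.9 for mural, 25.9 and 13.2 for fibroblast, 56.7 and 8.25 for microglial, 14.9 and 6.19 for ependymal, 34.3 and 33.4 for astroglial, 355 and 395 for mature oligodendrocyte and 285 and 474 for oligodendrocyte progenitor markers, and 166 of the 190 microglial UMIs in members were in 1 cell. With cells that held 3 or more UMIs of such a list left out of both groups, 340 genes were higher and 242 lower, and the S phase list stood at 1.70 times the high-Meg3 level.

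The 12 genes that led those higher in members were Neurod1, Eomes, Bhlhe22, Neurod6, Neurod2, Prdm8, Sema3c, Lhx2, Tbr1, Emx1, Slc25a13 and Npy. For the first 10, most UMIs in members came from the Neurod1/Eomes members. Neurod1 was at 759 CPM in Neurod1/Eomes members, 0.666 in Dlx members and 0.413 in high-Meg3 cells. Lhx2, a homeobox factor of the dorsal forebrain, was at 714, 22.3 and 5.78 CPM in the same groups. Sema3c, a secreted guidance protein, was at 444, 5.33 and 2.06 CPM.

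The remaining 2 genes were found in Dlx members. Slc25a13, a mitochondrial aspartate-glutamate carrier, had 86 UMIs in 62 members and 3 UMIs in high-Meg3 cells (25.6 against 1.24 CPM), a ratio of 20.7 (6.85 to 102). It was at 26.4 CPM in dividing Dcx cells, close to its level in members. Npy, a neuropeptide, had 55 UMIs in 14 members, 29.1% of them in 1 cell, against 1 UMI in high-Meg3 cells (ratio 39.7, 6.84 to 1598). With the Meg3 limit set at 0.1%, the ratio was 5.54 for Slc25a13 and 1.05 for Npy, and with 0.4% that of Npy was 4.83.

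Because the 2 kinds of cell differ, the 574 Dlx members were also set against the high-Meg3 cells by themselves. Of 8771 genes tested, 256 (2.92%) were higher and 243 (2.77%) lower. S phase genes were higher, 18 of 29 tested with 0 lower, and the S phase list stood at 1.84 (1.76 to 1.93) times the high-Meg3 level. Mcm3 and Mcm2, subunits of the replicative helicase, were at 49.3 against 3.30 CPM (14.9, 7.38 to 35.2) and 44.6 against 4.95 CPM (9.01, 4.99 to 17.9). Gmnn, which restrains the licensing of replication origins, was at 44.3 against 5.37 CPM, and Hells, a chromatin remodeller of replicating cells, at 45.3 against 4.95. At 1000 UMIs per cell, Mcm3 had a UMI in 11 of 574 Dlx members (1.92%, 0.960 to 3.40) and in 2 of 588 high-Meg3 cells (0.340%, 0.0412 to 1.22), shares whose intervals overlap, and in 1.90% of endothelial cells. Unthinned, the numbers were 73 of 574 and 5 of 592, at median depths of 4929 and 3971 UMIs.

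G2/M genes showed less of a difference, with 10 of 24 tested called higher and 0 lower, and a list ratio of 1.36 (1.30 to 1.41). Of 15 regulators of cell cycle entry and exit, 2 were higher in Dlx members, beside 2.92% of all tested genes. These were Ccnd2, the D-type cyclin of neuronal progenitors (4489 against 2232 CPM, 2.01, 1.95 to 2.08), and the kinase gene Cdk6 (35.6 against 4.95 CPM, 7.19, 3.95 to 14.4). At 1000 UMIs per cell, dividing Dcx cells held a median of 5 UMIs of S phase genes. That number was reached by 64 of 629 members, or 10.2%, and by 6 of 588 high-Meg3 cells, or 1.02%. The dividing cells' median of 17 UMIs of G2/M genes was reached by 1 member and no high-Meg3 cell. The rule capped Mki67 and Top2a in both groups, which bears on these counts.

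Progenitor genes were higher in Dlx members as well, 7 of 20 tested with 0 lower, beside 2.92% and 2.77% of all tested genes. The list stood at 1.65 (1.59 to 1.72) times the high-Meg3 level. Vim, an intermediate filament protein of progenitors, was at 694 against 169.6 CPM (4.09, 3.68 to 4.56), and Fabp7, a fatty acid-binding protein of radial glia, at 54.9 against 12.4 CPM (4.44, 2.99 to 6.78). Egfr, a growth factor receptor of activated progenitors, was at 23.6 against 9.91 CPM. Mdk, a secreted growth factor, was at 660.5 against 153 CPM, and Dbi, an acyl-CoA-binding protein, at 264 against 57.4. Mdk was singled out after its values were seen. Nes itself, whose regulatory elements drove the sorting reporter, was at 54.3 against 31.0 CPM (1.75, 1.33 to 2.34), below the 2-fold line.

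Among commitment factors, 5 of 19 were higher in Dlx members than in high-Meg3 cells and 0 were lower, beside 2.92% and 2.77% of all tested genes. The list as a whole was not higher, at 0.936 (0.920 to 0.953) times the high-Meg3 level. Insm1, a zinc-finger factor of newly committed progenitors, was at 185 against 57.0 CPM (3.25, 2.69 to 3.94). St18, a zinc-finger factor of the Myt1 family, was at 135 against 47.5 CPM. The Notch ligand Dll3 and the growth arrest gene Gadd45g were also higher. Gsx2, a homeobox factor of ventral progenitors, had 39 UMIs in Dlx members and 2 in high-Meg3 cells (15.7, 4.07 to 134).

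Genes lower in members were led by Prokr2, Rian, Foxp2, Pbx3, Adarb2, Dusp4, Arpp21, Ntm, Lrrtm3, Nxph1, C79798 and Syt6. Prokr2, a prokineticin receptor needed by neuroblasts that enter the olfactory bulb, was at 10.7 CPM in members and 103 in high-Meg3 cells, 9.61 (6.76 to 14.0) times lower. Pbx3, a homeobox factor, was at 171 against 781 CPM, 4.57 (4.16 to 5.03) times lower, and Foxp2, a forkhead factor, at 45.0 against 225 CPM, 5.0 (4.16 to 6.02) times lower. Ntm and Lrrtm3, membrane proteins of neuronal contacts, were at 4.77 against 28.5 CPM and 8.35 against 43.7 CPM. The vesicle protein gene Syt6 and the neurexin ligand gene Nxph1 were at 12.5 against 58.6 CPM and 13.1 against 61.9. Each of these was lower in Dlx members taken alone too, with ratios to high-Meg3 cells of 0.116 for Prokr2, 0.230 for Pbx3, 0.206 for Foxp2, 0.164 for Ntm, 0.213 for Lrrtm3, 0.239 for Syt6 and 0.237 for Nxph1.

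The GABA lineage list stood at 0.734 (0.723 to 0.745) times the high-Meg3 level in members, with 1 of 21 genes higher (Gsx2) and 5 lower (Foxp2, Foxp4, Pbx3, Six3 and Tshz1). Over all tested genes the shares were 3.78% higher and 2.31% lower. In Dlx members, whose definition used 5 of its genes, the list ratio was 0.802 (0.789 to 0.814). Tshz1, a zinc-finger factor of olfactory interneurons, was at 175 against 487 CPM (0.359, 0.323 to 0.398). Six3 counts came largely from few cells, with 34.0% of its UMIs in members from 1 cell. Dlx1, Gad1 and Gad2 differed by less than 2-fold, with ratios of 1.26, 0.776 and 0.830.

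The maturation and synapse list was at 0.755 (0.735 to 0.776) times the high-Meg3 level in Dlx members, with 0 of 24 genes higher and 6 lower. The sodium channel gene Scn3a was at 62.6 against 141 CPM, Ank3, which anchors channels at the axon initial segment, at 47.6 against 125 CPM, and Syt1, a calcium sensor of vesicle release, at 26.3 against 61.5 CPM. Camk4, Scn2a1 and Scn3b were the other 3. In migration genes, 3 of 26 were lower in Dlx members, beside 2.77% of all tested genes. They were Prokr2, the neuregulin receptor gene Erbb4 (57.6 against 162 CPM, 0.355, 0.295 to 0.426) and the semaphorin co-receptor gene Plxna4 (47.9 against 146 CPM, 0.329, 0.269 to 0.401). The netrin receptor gene Dcc was the only one called higher (2.80, 1.61 to 5.12).

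**Figure D3:**
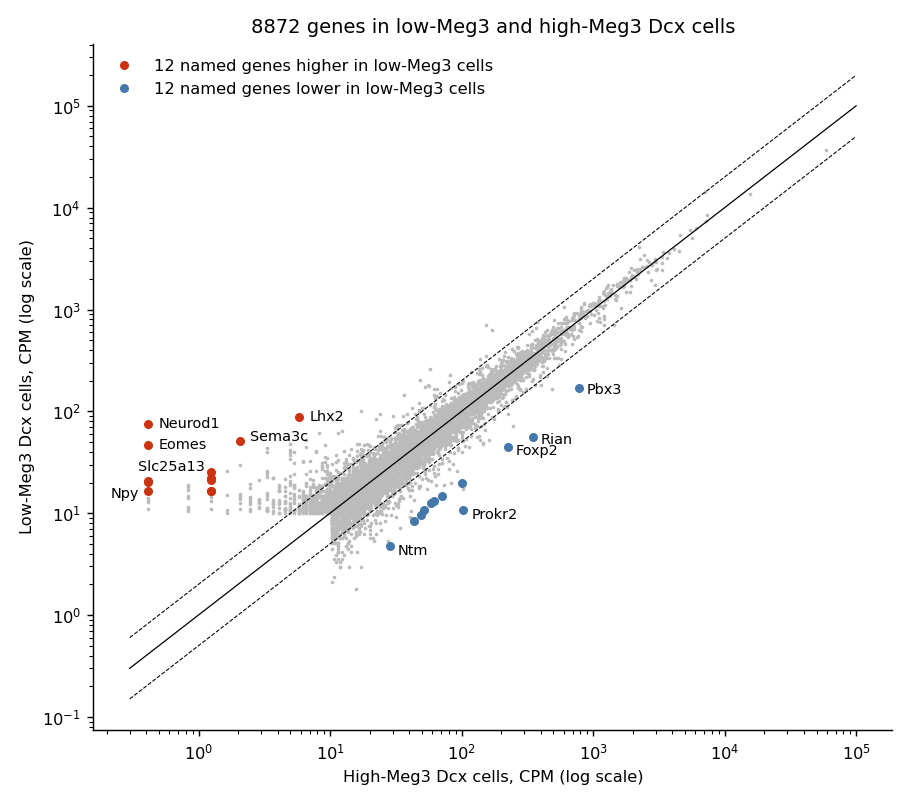
CPM in the 629 low-Meg3 cells (y axis, log scale) against CPM in the 592 high-Meg3 cells (x axis, log scale) for 8872 genes, with a gene at 0 UMIs in a group drawn at that group's floor of 3 UMIs. The solid line marks equal levels and the dashed lines 2-fold differences. Most genes lie between the dashed lines, while the 12 named genes higher in low-Meg3 cells (red) have 0 to 14 UMIs in high-Meg3 cells and Pbx3, Rian, Foxp2 and Prokr2 stand apart among the 12 lower (blue).

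Rian and Mirg, 2 noncoding RNAs of the same imprinted region as Meg3, were lower with it. On chromosome 12 of build mm10, Meg3 spans chr12:109541001-109571726, Rian chr12:109603940-109661716 and Mirg chr12:109729764-109749460, all on the plus strand. Rian was at 55.5 CPM in members and 349 in high-Meg3 cells (0.159, 0.135 to 0.186), and Mirg at 5.37 against 21.5 CPM (0.250, 0.138 to 0.435). The protein-coding genes Dlk1 and Dio3 of the region had 1 and 0 UMIs in members. Imprinted genes on other chromosomes varied. Some were closer to level, with ratios of 0.936 for Nnat, 0.828 for Snrpn, 1.09 for Ndn and 1.06 for Peg3. Grb10 and Peg10 were not, and were higher in members, at 12.2 against 2.48 and 13.7 against 6.19 CPM. In all, 2 of 14 tested imprinted genes were higher and 2 lower, beside 3.78% and 2.31% of all tested genes.

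To see whether the differences set in at the limit, the 1221 non-dividing Dcx cells were divided into 7 bins of Meg3 share, and the Neurod1/Eomes cells were left out, which left 275, 81, 90, 134, 284, 262 and 46 cells from 0 to 0.8% and over. Rian was higher in each successive bin, from 1.95 CPM at 0 to 183 just below the limit, 269.7 just above it and 628 at the top. Pbx3 went from 101 to 314, 611 and 994 CPM, and Foxp2 from 28.6 to 88.5, 172 and 412 CPM. Prokr2 was at 6.50, 22.1, 68.8 and 242 CPM in the same bins. Levels of these genes were thus graded within the low-Meg3 cells and went on upward beyond the limit.

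Other genes went the opposite way. Vim was level over the first 3 bins, at 739, 724 and 729 CPM, and lower after that, at 507 below the limit, 226 above it and 111 at the top. Insm1 was at 238 CPM at 0, 61.6 just below the limit and 69.6 just above it, so that much of its gradient lay inside the low-Meg3 cells. The S phase list went from 2595 CPM at 0 to 1502 and 1256 on either side of the limit. Mcm3 went from 64.3 to 12.6 and 5.67 CPM, and Mdk from 875 to 327 and 176 CPM. Ccnd2 was at 4916 CPM at 0, 3249.8 and 2586 beside the limit and 1589 at the top.

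Several genes were nearly level over the bins, such as Parm1 (107 CPM at 0 and 131 at the top) and Igfbpl1 (2211 and 2099). Of the other label markers, Islr2 was at 423 and 654 CPM and Zfp385b at 41.6 and 91.6 CPM in these bins, higher at the top. Dcx and Sox11, genes of the rule, were at 983 and 1413 CPM and at 390.4 and 445 CPM. By the log2 ratio of the top bin to the 0 bin over all 1221 cells, the genes with the largest positive values were Rian (8.58), Ntng1 (5.58), Prokr2 (5.47), Pappa (4.90) and Syt6 (4.39), and those with the most negative Dbi (-3.61), Znhit1 (-3.58), Pcp4 (-3.55), Cnih2 (-3.49) and Zbtb18 (-3.47). Ntng1, a membrane-anchored guidance protein, and Pappa, a protease of insulin-like growth factor binding proteins, rested on few counts in the 0 bin, at 0.547 and 1.09 CPM. The negative values rested on few counts in the top bin, where Znhit1, Pcp4 and Cnih2 had 1 UMI each, Zbtb18 had 3 and Dbi had 4. Without the Neurod1/Eomes cells, the 0 and top bins were at 101 and 19.6 CPM for Zbtb18. Pcp4 then had only 2 UMIs in the 0 bin, and Cnih2 was at 37.7 CPM there and at 50.2 CPM in the bin below the top, so neither shows a direction. The median depth per bin of all cells went down from 5500 to 3211 UMIs. Across the 574 Dlx members, the Spearman correlation of UMIs per cell was -0.261 with Meg3 and 0.293 with the S phase list. That of the S phase list with Meg3 was -0.138. These describe cells of 1 library, and the part of depth in the trends over the bins was not tested.

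**Figure D4:**
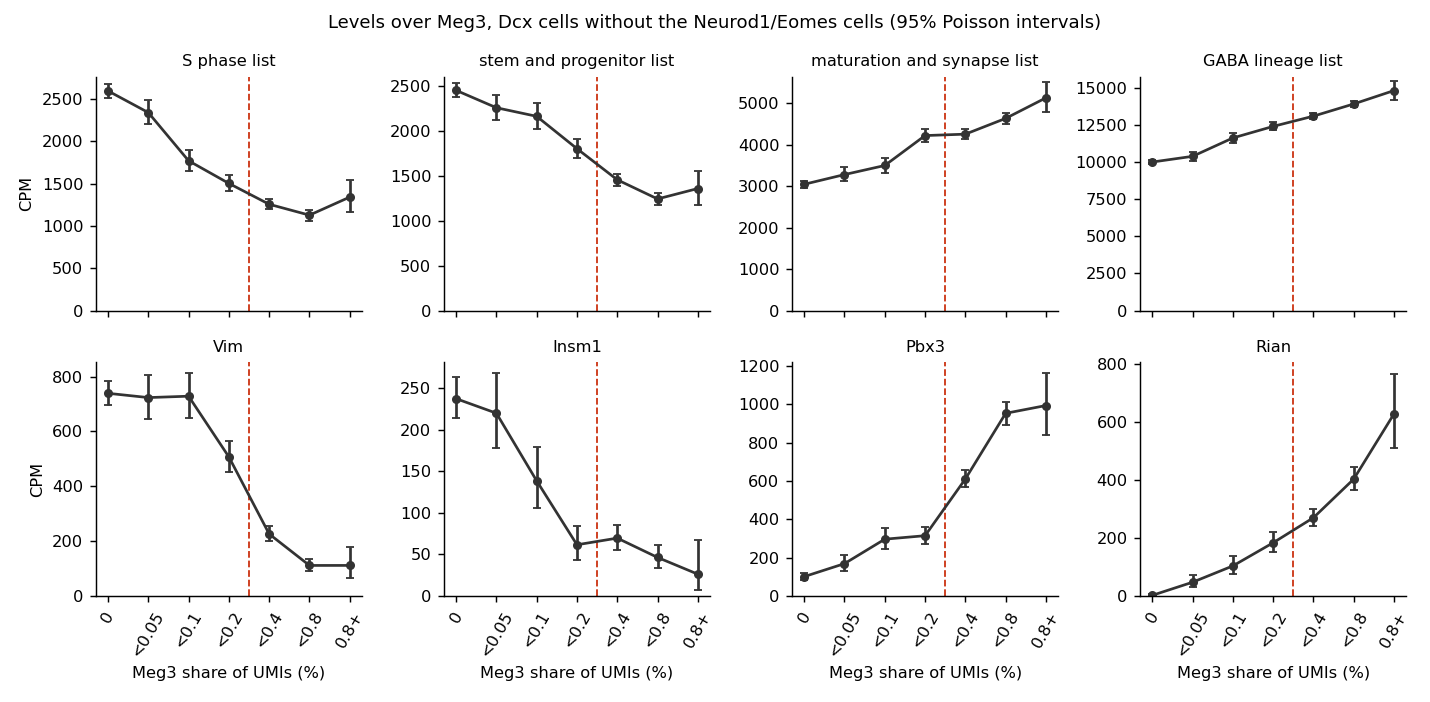
CPM (y axes from 0) of 4 gene lists and 4 genes over 7 bins of the Meg3 share of UMIs (x axes, percent) in the non-dividing Dcx cells without Neurod1/Eomes cells. Bars are exact 95% Poisson intervals of the counts and the dashed line is the 0.2% limit. The S phase and progenitor lists, Vim and Insm1 are highest at 0 and lower above the limit, though both lists turn up slightly in the top bin, whereas the synapse and GABA lineage lists, Pbx3 and Rian are highest in the top bin, with no single step at the limit shared by all.

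Neuroblasts of the adult brain can still divide, and the dividing Dcx cells were the next comparison. Of 9054 genes tested, 426 (4.71%) were higher in the low-Meg3 Dcx cells and 657 (7.26%) lower. The division lists were lower, with 47 of 48 G2/M genes and 33 of 37 S phase genes, a direction tied to the gate on Mki67 and Top2a. The 12 genes that led were Esco2, Plk1, Hist1h2af, Spc25, Cdk1, Hmmr, Kif23, Cdca2, Kif14, Kif18b, Kif11 and Pbk. Cdk1, the kinase that drives mitosis, was at 4.17 against 508 CPM. Plk1, a mitotic kinase, had no UMI in members and 253 in dividing cells.

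The lists differed in extent: the S phase list was at 0.331 (0.322 to 0.341) times the dividing cells' level and the G2/M list at 0.107 (0.104 to 0.110) times. For Ccnd2 the levels were much alike, at 4098 and 4036 CPM (1.02, 0.989 to 1.04). For the commitment factors, Insm1 was lower than in dividing cells (0.452, 0.406 to 0.502) and Myt1l, a zinc-finger factor of postmitotic neurons, was higher (2.33, 1.96 to 2.79). Insm1 in members was thus between the dividing cells and the high-Meg3 cells (394, 178 and 57.0 CPM). Vim (763, 630.3 and 169.6 CPM) and Fabp7 (105, 63.8 and 12.4 CPM) took the same order.

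Of 25 neuronal maturation genes tested, 8 were higher than in dividing cells and 0 lower, and the list was at 1.34 (1.30 to 1.38) times their level. With the 49 Neurod1/Eomes members left out, 5 of 22 were higher (Ank3, Ndrg4, Scn3a, Syn1 and Syt1) and the list ratio was 1.30 (1.26 to 1.34). The cytoskeletal list was at 1.27 (1.26 to 1.28) times, and the GABA lineage list at 1.26 (1.23 to 1.28) times. Of their genes, 2 of 27 were higher (Ina and Kif21b) and 1 of 20 lower (Gsx2), shares near the 4.71% and 7.26% of all tested genes. Among migration genes, 7 of 28 were higher and Cxcr4, a chemokine receptor, was lower (0.431, 0.299 to 0.616). Without the 49 cells 4 of 28 were higher (L1cam, Plxna4, Prokr2 and Tiam2). Tcp11l2 was at 47.1 CPM in members, 63.6 in high-Meg3 cells and 2.68 in dividing cells, a ratio of 17.5 (7.89 to 48.5) to the latter.

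Of the other 11 genes that led those higher than in dividing cells, 8 (Bhlhe22, Neurod6, Neurod1, Chl1, Neurod2, Kcnk1, Nrn1 and Sstr2) had most of their UMIs in Neurod1/Eomes members. The remaining 3, Cldn5, Flt1 and Slco1a4, are endothelial markers. Cldn5 was at 54.6 against 3.58 CPM, with 45.4% of its UMIs in members from 1 cell. Its ratio of 15.2 became 1.09 without the cells that held 3 or more UMIs of another type's list and 1.51 without cells marked as doublets. The endothelial list as a whole was at 10.5 (7.47 to 15.2) times the dividing cells' level, with 491 of its 552 UMIs in the 6 members named above.

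The 49 Neurod1/Eomes members were then compared with the 574 Dlx members. Of 9320 genes tested, 1293 (13.9%) were higher and 829 (8.89%) lower in the Neurod1/Eomes members, whose median depth was 6164 UMIs against 4929. The subsets were defined by 10 of these genes, so the glutamate and GABA lists are given as descriptions. Of 13 glutamate lineage genes, all 13 were higher, and of 21 GABA lineage genes, 18 were lower and 1 higher (Foxp4).

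In single cells, Neurod1 had a UMI in 44 of 49 Neurod1/Eomes members, Eomes in 36, Tbr1 in 33, Neurod2 in 30 and Neurod6 in 28. Slc17a6, a vesicular glutamate transporter that the definition did not use, had a UMI in 25 of 49 and in 0 of 574 Dlx members, and its level of 174 CPM was at least 174-fold higher. A second transporter gene, Slc17a7, had a UMI in only 3 of the 49. Gad1 had none, while 7 held Gad2, against 345 and 481 of 574 Dlx members. Reln, a marker of certain early-born cortical neurons, had no UMI in the 49.

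The next genes include factors used in the hippocampus. The niche of the 49 cells was not recorded, and their origin was not tested. Prox1, a homeobox factor that granule neurons require, had a UMI in 26 of the 49 and was at 505 against 199 CPM (2.54, 2.12 to 3.03). It had a UMI in 296 of 574 Dlx members as well. Calb2, a calcium-binding protein of immature granule neurons and of some olfactory interneurons, had a UMI in 23 of the 49 and was at 611 against 32.3 CPM (18.9, 14.7 to 24.4). Emx1, a dorsal forebrain factor, had a UMI in 30 of the 49 and 3 of 574, and Lhx2 in 48 and 46. Id2, an inhibitor of basic helix-loop-helix factors, was at 846 against 19.6 CPM (43.1, 32.4 to 58.2). Neurog2, a factor of progenitors that make glutamate neurons, had 43 UMIs in 9 of the 49 cells, 37.2% of them in 1 cell, and none in Dlx members.

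In these 49 cells, 22 of 35 tested synaptic genes were higher than in Dlx members and 3 lower, beside 13.9% and 8.89% of all tested genes. The list as a whole was at 1.30 (1.23 to 1.38) times the Dlx level. A single UMI in the 49 cells is 3.22 CPM, and a gene under 10 CPM in Dlx members entered only by being higher here. Cplx2, a regulator of vesicle fusion, was at 749.8 against 50.3 CPM (14.9, 12.1 to 18.4), Rbfox3, the gene of the NeuN antigen, at 167 against 4.99 CPM (33.5, 18.6 to 64.1), and Gria1, a glutamate receptor subunit, at 109 against 6.99 CPM (15.7, 8.83 to 28.4). By contrast Nrxn3, a presynaptic adhesion protein, was at 9.65 against 1663 CPM. S phase genes were lower, 15 of 29 with 0 higher. Mcm3 had no UMI in the 49 cells, and Ccnd2 was at 412 against 4489 CPM (0.0918, 0.0765 to 0.109). Vim was at 74.0 against 694 CPM and Parm1 had no UMI in the 49 cells. Igfbpl1 was higher, at 4518 against 2072 CPM (2.18, 2.06 to 2.31). Relative to high-Meg3 cells, Ccnd2, Vim and the S phase list were thus higher in Dlx members and lower in Neurod1/Eomes members. The S phase list was at 2223 CPM in Dlx members, 843 in Neurod1/Eomes members, 1206 in high-Meg3 cells and 6302 in dividing Dcx cells. Per thinned cell, its median was 1 UMI in Dlx members, Neurod1/Eomes members and high-Meg3 cells alike. The dividing cells' median of 5 UMIs was reached by 63 of 574 Dlx members and 6 of 588 high-Meg3 cells.

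**Figure D5:**
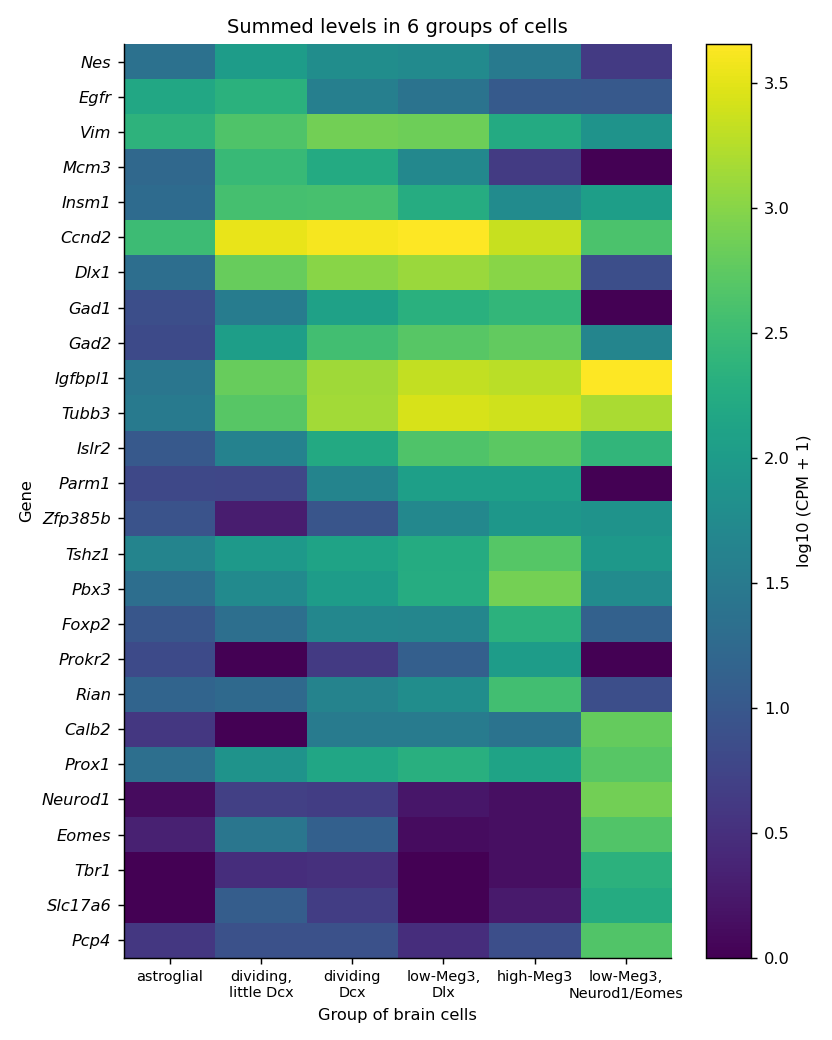
Summed levels of 26 genes (rows) in 6 groups of brain cells (columns) as log10 (CPM + 1), the colour scale. Groups are 827 astroglial cells, 143 dividing cells with little Dcx, 265 dividing Dcx cells, 574 Dlx and 49 Neurod1/Eomes low-Meg3 cells and 592 high-Meg3 cells. Vim and Insm1 are at intermediate to high levels in Dlx members, Tshz1, Pbx3, Foxp2, Prokr2 and Rian are highest in high-Meg3 cells, and the last 7 genes are highest in Neurod1/Eomes members.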

How the data were processed

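Single-cell RNA-seq of GFP+ brain and lung cells gave 1 library each. The authors deposited UMI counts per gene and cell barcode, not normalized, made per the labels with bcl2fastq 2.19.1.403, UMI-tools 1.0.0, STAR 2.7.1a against mm10 and featureCounts 1.6.4. The annotation and strand setting were not given in the sources used here, and reads of overlapping genes may be split or lost. Cells were filtered and gated as described above, and raw counts were summed per group (Python 3.11.15, numpy 2.4.6, scipy 1.17.1, pandas 2.3.3). Doublets were marked by Scrublet in scanpy 1.11.5 (expected rate 0.06) and kept except in an alternative. No test was run, because each group comes from 1 library. Intervals are exact (Poisson for levels, conditional binomial for ratios, Clopper-Pearson for shares), and the upper limit for a share of 0 is 3 counts of the total. Intervals were checked only on simulated independent Poisson counts, the model that they assume. They cover counting error only and do not allow for a gene's UMIs being held by few cells.

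Named genes were those of the rule and markers, the 12 with the largest lower 95% bound of the ratio in each direction of a comparison (rule, mitochondrial, ribosomal protein and Gm or Rik genes aside), genes needed to describe a list, and the 5 with the largest log2 ratio across Meg3 bins in each direction among genes with at least 20 CPM in a bin. Genes named only for the 2 kinds of member, and Mdk, were chosen after their values were seen. Of 446 genes in the lists, 10 had no counts and are not analysed here, and some others are not reported here. The members and lists were chosen with earlier results of these data known. Coordinates are from the GENCODE mm10 annotation. Alternatives changed the filters, the Meg3 and Dcx limits, the level minimum and the depth, or left out cells.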

Additional observations from a re-analysis of the deposited data

How the results depend on the processing

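No paired analysis was possible because the labels give no replicate numbers and each tissue has 1 library, and for the same reason no replicate could be left out. The number of members ranged from 464 to 913 over the alternatives. Of 72 counts of genes, 52 stayed within 1.5 times the reported value, 20 moved and 0 reversed. Of 120 list levels, 58 stayed within counting error and 62 moved without reversing. Of 804 single-gene ratios, 635 stayed, 163 moved and 6 reversed. The 6 were ratios to all other brain cells without the Neurod1/Eomes cells, an alternative added after seeing the data, at 0.702 for Neurod1, 0.171 for Tbr1, 0.600 for Bhlhe22, 0.346 for Slc17a6, 0.477 for Eomes and 0.215 for Pcp4, as its construction removes the cells that carry them.

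Counts moved as follows, and beyond the number of genes tested the cause was not tested. Against all other brain cells, genes called higher numbered 438 with a Meg3 limit of 0.4% and 469 after thinning. With no minimum level they were 777 higher and 4749 lower, with a minimum of 50 CPM 143 and 628, and with cells holding 3 or more UMIs of another type's markers left out of members and comparison cells alike, an alternative added after seeing the data, 83 and 1213. That alternative removes many cells of other types from the comparison group. Against high-Meg3 cells, 663 and 636 were called after thinning, 1261 and 804 with no minimum and 56 and 61 at 50 CPM. Against dividing Dcx cells the numbers were 1013 and 992, 1454 and 1227, and 65 and 353.

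The ratios of 4 lists to high-Meg3 cells moved and kept their direction under each alternative. The GABA lineage ratio was 0.704 with a Meg3 limit of 0.1%, 0.769 with 0.4%, 0.765 as a mean of per-cell CPM, 0.755 after thinning, and 0.796 and 0.752 in the added alternatives without Neurod1/Eomes cells and without cells holding other types' markers. The glutamate lineage ratio was 2.75 with a limit of 0.4%, and 1.67 and 3.27 in those added alternatives. The S phase ratio was 1.61 with a limit of 0.4%, 1.58 as a mean of per-cell CPM, 1.62 after thinning and 1.84 without Neurod1/Eomes cells. The maturation and synapse ratio was 0.749 with a limit of 0.1%, 0.818 after thinning and 0.758 without Neurod1/Eomes cells.

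With 1 library, differences between animals and preparations could not be measured. At a median of 6164 UMIs per cell, a gene with 0 UMIs in the 49 Neurod1/Eomes members may still be expressed at low levels, and a gene near 10 CPM rests on few counts. Without cells marked by Scrublet, the counts against high-Meg3 cells were 320 and 214. Free RNA was not removed, and its part in small differences was not tested.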

Other observations

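Immediate early genes, which neurons switch on within minutes of stimulation and which tissue dissociation can also induce, were close to level between members and high-Meg3 Dcx cells, with only Ier5 of 12 tested called higher. They were less even within the members. In Neurod1/Eomes members 5 of 12 were higher than in Dlx members and 0 lower, beside 13.9% and 8.89% of all tested genes, and the list stood at 1.79 (1.68 to 1.90) times the Dlx level. Egr1 was at 1107 against 466 CPM, Ier2 at 631 against 174, Btg2 at 386 against 149, Ier5 at 373 against 68.9 and Junb at 86.9 against 38.6 CPM. The part of dissociation in this difference was not tested.

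Of 11 factors that mark subtypes of olfactory interneurons, 3 were higher and 4 lower in Neurod1/Eomes than in Dlx members, in a comparison where 13.9% of all tested genes were higher and 8.89% lower. Nr2f1 and Nr2f2, orphan nuclear receptors, were at 467 against 161 CPM and 109 against 50.3 CPM. Etv1, an ETS factor, was at 19.3 against 248 CPM. Sall3 and Vax1 had no UMI in the Neurod1/Eomes members and were at 53.6 and 41.3 CPM in Dlx members. Against high-Meg3 cells, 1 of 11 subtype factors was higher in members (Calb2) and 2 were lower (Prokr2 and Tshz1), beside 3.78% and 2.31% of all tested genes.

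Of 28 migration and adhesion genes, 10 were higher in Neurod1/Eomes than in Dlx members and 5 lower, beside the same 13.9% and 8.89% of all tested genes. Nrp1, a semaphorin co-receptor, was at 270.3 against 6.32 CPM, and Epha4, an ephrin receptor, at 673 against 231 CPM. Tiam2, an activator of Rac, was at 9.65 against 616 CPM. Among regulators of cell cycle entry and exit, 4 of 15 were higher and 3 lower, numbers too small to set against those shares. Zbtb18, a repressor needed in cortical neurons, was at 862 against 88.2 CPM (9.78, 8.22 to 11.6) and Cdk6 at 171 against 35.6 CPM (4.79, 3.38 to 6.72).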
